A study of Mus musculus with 3 samples.

Results

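The circadian clock genes described here are Per1, Per2, Per3, Cry1, Cry2, Clock, Dbp, Ciart, Bhlhe40 and Bhlhe41, found by their symbols in a table of 19471 genes, in which each of the 10 had 1 row. Their RNA was sequenced from poly(A) libraries of mouse cortical astrocytes, taken from wild-type pups on postnatal day 1 and cultured for 7 days. The 3 libraries form 1 group, marked Ctrl in the sample descriptions, with no knockout, treatment or second age beside it, and come from pups 5, 6 and 8 as biological replicates 1, 2 and 3. The series concerns the histone variant H2BE, and all 3 libraries are wild type. The hour at which RNA was collected, the medium and the sex of the pups are not given in the labels, so no level below can be assigned to a phase of the day.

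The mammalian clock is a feedback loop of transcription. CLOCK and its partner BMAL1 bind E-boxes and activate the Per and Cry genes, whose proteins return to the nucleus and repress the same activators. CIART, BHLHE40 and BHLHE41 are further repressors in that loop, and DBP is an output factor that acts through D-boxes. Cultured astrocytes are known to carry such a clock, and in the brain astrocyte clocks can shape daily behaviour.

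The windows below show how the E-box and D-box, the sites through which these genes regulate one another, lie around the transcription starts. RefSeq promoter windows on GRCm38.p6, the assembly of mm10, ran from 250 bases before to 50 bases after a start, 300 in all, and 8 of the 10 genes matched, with 11 windows. Per2 and Bhlhe40 had no window there. The letters searched on both strands were the E-box CACGTG, its variant CACGTT, the D-boxes TTACGTAA and TTATGTAA, the AGGTCA core bound by ROR and REV-ERB receptors, the cAMP response element TGACGTCA, and its shorter core TGACG, which lies inside the full element. Capitals mark every match, and a match on the opposite strand appears as its reverse complement. Per1 had 2 windows, of which the one with the E-box is shown.
Ciart, chr3:95882179-95882478, minus strand: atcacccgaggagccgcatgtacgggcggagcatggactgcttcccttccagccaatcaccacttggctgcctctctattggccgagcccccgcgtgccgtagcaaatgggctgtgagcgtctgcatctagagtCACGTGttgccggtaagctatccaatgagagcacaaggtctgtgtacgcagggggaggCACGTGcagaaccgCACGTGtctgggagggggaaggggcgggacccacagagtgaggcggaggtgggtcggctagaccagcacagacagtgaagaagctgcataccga
Cry1, chr10:85185005-85185304, minus strand: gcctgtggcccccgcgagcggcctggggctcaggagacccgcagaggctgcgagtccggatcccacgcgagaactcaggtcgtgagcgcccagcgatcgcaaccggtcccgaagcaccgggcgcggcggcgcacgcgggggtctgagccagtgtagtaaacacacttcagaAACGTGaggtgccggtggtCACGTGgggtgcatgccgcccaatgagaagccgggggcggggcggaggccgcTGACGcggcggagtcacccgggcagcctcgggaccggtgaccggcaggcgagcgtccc
Per1, chr11:69098699-69098998, plus strand: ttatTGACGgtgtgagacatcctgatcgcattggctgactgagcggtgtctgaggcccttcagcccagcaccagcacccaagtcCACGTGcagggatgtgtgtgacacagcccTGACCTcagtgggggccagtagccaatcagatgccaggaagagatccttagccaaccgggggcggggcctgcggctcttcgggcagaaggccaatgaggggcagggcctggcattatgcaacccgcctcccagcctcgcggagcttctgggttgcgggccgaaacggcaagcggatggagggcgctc
Bhlhe41, chr6:145865371-145865670, minus strand: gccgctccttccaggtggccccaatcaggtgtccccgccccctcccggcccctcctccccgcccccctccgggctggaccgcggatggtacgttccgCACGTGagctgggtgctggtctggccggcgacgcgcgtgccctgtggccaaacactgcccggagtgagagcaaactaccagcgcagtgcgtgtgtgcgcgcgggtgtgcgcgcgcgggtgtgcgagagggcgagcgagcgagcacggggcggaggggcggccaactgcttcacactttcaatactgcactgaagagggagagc
Per3, chr4:151044616-151044915, minus strand: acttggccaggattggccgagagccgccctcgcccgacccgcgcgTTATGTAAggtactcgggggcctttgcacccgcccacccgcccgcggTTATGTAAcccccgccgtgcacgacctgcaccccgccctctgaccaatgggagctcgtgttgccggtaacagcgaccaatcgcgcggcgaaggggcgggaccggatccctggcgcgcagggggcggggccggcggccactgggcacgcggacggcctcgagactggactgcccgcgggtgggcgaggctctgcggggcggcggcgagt
Dbp, chr7:45704997-45705296, plus strand: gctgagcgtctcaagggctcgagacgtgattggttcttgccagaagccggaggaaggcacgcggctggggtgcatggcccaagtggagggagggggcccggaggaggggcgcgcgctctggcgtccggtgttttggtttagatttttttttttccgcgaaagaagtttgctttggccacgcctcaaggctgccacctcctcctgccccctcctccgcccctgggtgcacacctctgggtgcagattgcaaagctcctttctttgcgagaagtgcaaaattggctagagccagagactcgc

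Ciart held 3 E-boxes, starting 116, 58 and 44 bases before its start. Cry1 had 1 E-box at 60 bases and 1 CACGTT match at 79 bases before the start, Per1 had 1 E-box at 166 bases and Bhlhe41 had 1 at 153 bases. The E-box was thus in 4 of the 11 windows, from 4 of the 8 genes, and in 7.15% of all 32851 windows. Per3 alone of the 8 genes matched a D-box, with TTATGTAA at 205 and 158 bases before its start, a motif in 0.938% of all windows, while TTACGTAA was in 0.119% of them and in none of the 11. Dbp had none of the searched letters, and the full cAMP response element, in 1.79% of all windows, was in none of the 11. CACGTT was in 4.68% of all windows, the AGGTCA core in 16.3% and TGACG in 20.8%. CACGTT matched Cry1 and Cry2, AGGTCA matched Per1 and Clock, and TGACG matched Cry1, Cry2 and Per1. A match is a stretch of letters and was not tested as a binding site, and sites outside these windows were not searched.

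Summed over genes the libraries held 9858626 to 25128038 reads, a 2.55-fold range, with replicate 3 the shallowest and replicate 2 the deepest. The label of the cells was checked against markers. All 10 astrocyte markers reached a mean normalized count of 10, as did 71.6% of all genes. Their summed values ran from 142951 to 162555 per library. All 7 microglial, 5 mural and fibroblast and 4 ependymal markers also reached a mean of 10. The 7 microglial markers summed to 22568 in replicate 1, 17676 in replicate 2 and 15495 in replicate 3, and the 5 mural and fibroblast markers, led by Acta2, to between 50441 and 51563. The 4 ependymal markers, led by Foxj1, summed to between 9835 and 13230 and the 4 oligodendrocyte markers in the table, nearly all from Cnp, to between 5141 and 5943. Sums of the 7 neuronal markers lay between 765 and 1173 and those of the 4 endothelial markers in the table between 88.5 and 121. The neuronal sum came mostly from Stmn2, Syt1 and Tubb3, with mean normalized counts of 669, 167 and 157. Gad1, Rbfox3, Snap25 and Slc17a7 had means of 24.4 or less. Slc17a7, a glutamatergic neuron marker, had 0 reads in replicates 1 and 3 and 5 reads in replicate 2. Clock genes are expressed in most cell types, so their reads cannot be assigned to 1 of them, and in such bulk RNA fewer cells of a type and less RNA per cell cannot be told apart.

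All 10 clock genes were expressed. Their mean normalized counts all reached 10, as did those of 71.6% of all genes in the table. A mean of 100 was reached by 9 of the 10, all but Ciart, and by 54.3% of all genes. Together they took 0.0418% of the reads. The deposited value is a read count divided by a library size factor and not by gene length, so levels of different genes are compared below per kilobase of annotated exon. Means are given with the SD over the 3 libraries.

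Clock encodes the activator that pairs with BMAL1. It lies on chromosome 5 from 76209868 to 76304792 (ENSMUSG00000029238, mm10, minus strand) and has 13727 bases of annotated exon, more than any other of the 10. Clock had normalized counts of 610.02, 797 and 793 in replicates 1, 2 and 3. Replicates 2 and 3 lay together and replicate 1 lay below them. Per kilobase its level was 53.4 ± 7.77 (SD, n = 3), the 8th of the 10.

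The Per genes encode the PERIOD repressors, of which PER1 and PER2 are needed for a stable rhythm. Per1 (ENSMUSG00000020893, chromosome 11, 69095217 to 69109960, plus strand, 5631 bases of exon) had normalized counts of 587, 477 and 430.5 in replicates 1, 2 and 3, the widest spread of the 10 genes with a coefficient of variation of 16.2%. Per2 (ENSMUSG00000055866, chromosome 1, 91415982 to 91459324, minus strand, 5856 bases) had 337, 301 and 331. Per3 (ENSMUSG00000028957, chromosome 4, 151003652 to 151044665, minus strand, 9608 bases) had 458, 434 and 502. Replicate 1 was thus highest for Per1 and Per2, whereas replicate 3 was highest for Per3.

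Per kilobase, Per1 stood at 88.5 ± 14.3, Per2 at 55.2 ± 3.24 and Per3 at 48.4 ± 3.58 (SD, n = 3). Of the summed Per level per kilobase, Per1 gave 45.9% ± 4.32, Per2 28.8% ± 1.58 and Per3 25.3% ± 2.75. Within libraries Per1 exceeded Per2 by 0.67 ± 0.22 and Per3 by 0.86 ± 0.29 on the log2 scale, in 3 of 3 libraries. With no division by length Per1 still exceeded Per2 by 0.61, but its difference from Per3 was 0.090, and 0.45 with the longest transcript. The order of Per2 and Per3 also depended on the length used. Per2 differed from Per3 by 0.19 ± 0.078 with the union of annotated exons, but by -0.48 with the longest transcript and by -0.52 with no division by length.

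The Cry genes encode CRYPTOCHROME 1 and 2, the main repressors of CLOCK and BMAL1. Cry1 (ENSMUSG00000020038, chromosome 10, 85131700 to 85185064, minus strand, 3340 bases) had normalized counts of 329, 284 and 309 in replicates 1, 2 and 3. Cry2 (ENSMUSG00000068742, chromosome 2, 92403646 to 92434043, minus strand, 6320 bases) had 643, 581 and 589.5. Both were highest in replicate 1 and lowest in replicate 2, and the 2 genes kept nearly the same ratio in each library.

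Per kilobase the Cry genes were close, with Cry1 at 92.1 ± 6.74 and Cry2 at 95.7 ± 5.34 (SD, n = 3). Cry1 gave 49.0% ± 0.853 of the summed Cry level and Cry2 51.0% ± 0.853. The difference of Cry1 from Cry2 was -0.055 ± 0.049 on the log2 scale, with Cry2 higher in 3 of 3 libraries. It grew to -0.58 with the longest transcript and to -0.97 with no division by length, so its size rests on the annotated lengths.

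Bhlhe40 and Bhlhe41, also called Dec1 and Dec2, encode basic helix-loop-helix repressors that compete with CLOCK and BMAL1 at E-boxes. Bhlhe40 (ENSMUSG00000030103, chromosome 6, 108660629 to 108666925, plus strand, 4705 bases) had normalized counts of 774, 818 and 897 in replicates 1, 2 and 3. Bhlhe41 (ENSMUSG00000030256, chromosome 6, 145858243 to 145865558, minus strand, 6720 bases) had 632, 661 and 820.3. Both were highest in replicate 3 and lowest in replicate 1. Exons of Bhlhe41 overlap those of Gm43909 on the opposite strand over 1280 bases, 19.0% of its exon length, and the strand setting of the counting is not given in the sources used here.

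Bhlhe40 had the highest level per kilobase of the 10 genes, 176 ± 13.3, against 105 ± 15.1 for Bhlhe41 (SD, n = 3). Within libraries Bhlhe40 exceeded Bhlhe41 by 0.76 ± 0.099 on the log2 scale, in 3 of 3 libraries. The same difference was 1.22 with the longest transcript and 0.24 with no division by length, so its direction held under each length.

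Ciart, also known as Chrono, encodes a repressor that binds BMAL1. It lies on chromosome 3 from 95878503 to 95882251 (ENSMUSG00000038550, minus strand, 2261 bases) and was the lowest of the 10 genes. It had 56, 76 and 34 reads, or normalized counts of 45.5, 35.9 and 40.7, in replicates 1, 2 and 3. Its level per kilobase was 18.0 ± 2.14 (SD, n = 3). Of its 50-base stretches 11.9% were shared with the annotated gene Gm9176, so part of its count is uncertain.

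Dbp encodes the D-box activator and is in many tissues among the most rhythmic outputs of the clock. It lies on chromosome 7 from 45705088 to 45710203 (ENSMUSG00000059824, plus strand, 2993 bases) and had normalized counts of 502, 446 and 457 in replicates 1, 2 and 3. Its level of 156 ± 9.87 per kilobase (SD, n = 3) was second to Bhlhe40. Exons of Dbp overlap those of Sphk2 on the opposite strand over 539 bases, 18.0% of its exon length. Sphk2, a sphingosine kinase gene, stood at 495, 399 and 359.9 in the same libraries, so reads assigned to the wrong strand could enter either gene.

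**Figure D1:**
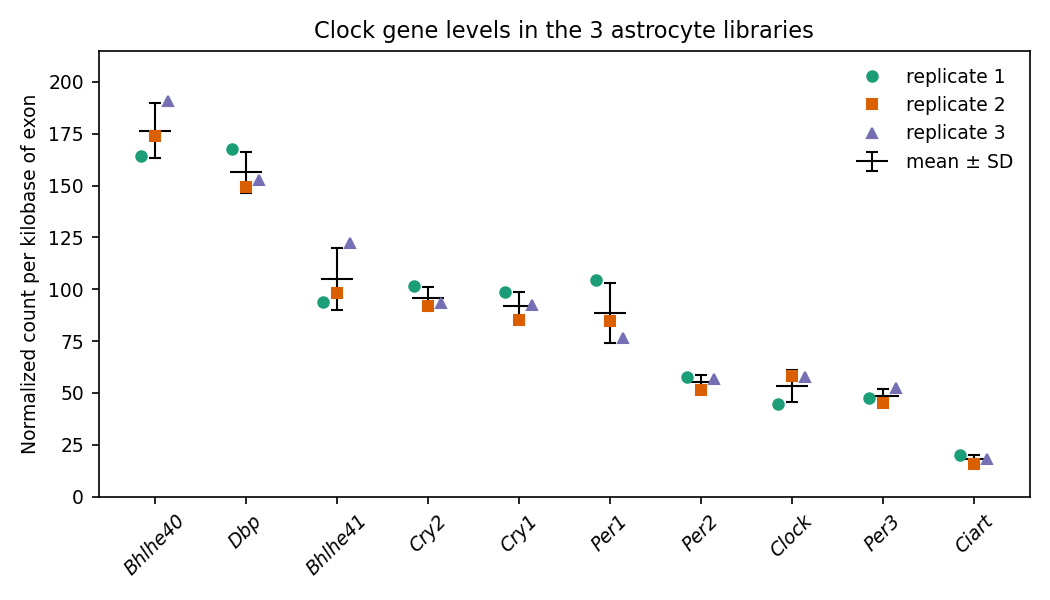
Level of each of the 10 clock genes (x axis) as the normalized count per kilobase of annotated exon (y axis), with a point for each library and a black mark for the mean ± SD of the 3 libraries. Bhlhe40 and Dbp lie highest at 176 and 156, and Ciart lies lowest at 18.0.

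Ordered by level per kilobase, the genes ran Bhlhe40, Dbp, Bhlhe41, Cry2, Cry1, Per1, Per2, Clock, Per3 and Ciart. Neighbours were taken as not separated where their within-library difference was smaller than its SD or changed sign between libraries. By that rule Bhlhe40 and Dbp, Bhlhe41 and Cry2, Cry1 and Per1, Per2 and Clock, and Clock and Per3 were not separated. The separated neighbours were Dbp above Bhlhe41 by 0.59 ± 0.26 on the log2 scale, Cry2 above Cry1, Per1 above Per2, and Per3 above Ciart by 1.40 ± 0.16. The order depends on the length used. With no division by length Dbp, at a mean of 468, lay below Bhlhe41 at 705. With the longest transcript Cry2 at 152 lay above Bhlhe41 at 115, and Per3 at 77.5 above Clock at 75.2 and Per2 at 55.4. An exact sign-flip test over 3 libraries cannot give a p below 0.25, so none was made for single pairs.

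Levels were then set against Clock in a fit over all genes, to ask where repressors and outputs stood relative to the activator. Of the other 9 clock genes, limma called 6 above Clock per kilobase and 1 below (adjusted p under 0.05, Benjamini-Hochberg over 13901 genes, on log2 differences taken within each library). Of all genes, 51.5% were above Clock and 34.9% below it in the same fit, so such calls are common. Bhlhe40 lay 1.73 ± 0.18 (SE) above Clock and Dbp 1.56 ± 0.18, or 3.32-fold and 2.95-fold (adjusted p = 1.82e-22 and 1.40e-18, limma). Bhlhe41 lay 0.97 above it, Cry2 0.85, Cry1 0.80 and Per1 0.73 (limma, adjusted p from 4.70e-08 for Bhlhe41 to 5.08e-05 for Per1). Each of these 6 was above Clock in 3 of 3 libraries.

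Ciart stood at -1.53 ± 0.20 (SE) relative to Clock, or 2.89-fold lower, and was lower in 3 of 3 libraries (adjusted p = 1.01e-13, limma). Per2 and Per3 were not called, with differences of 0.059 ± 0.18 (SE, adjusted p = 0.762, limma) and -0.13 ± 0.18 (SE, adjusted p = 0.486, limma). With 3 libraries limma draws most of each error from other genes, and every difference shares the 3 values of Clock. The calls above Clock depend on division by length, since Clock has the longest exon sequence of the 10. With no division, 0 of the 9 were above Clock (limma, also 0 at an unadjusted p under 0.05) and 6 were below it, when 23.1% of all genes were above and 64.8% below. With the longest transcript 6 were above and 2 below, Ciart and Per2, beside 50.6% and 36.2% of all genes.

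The partners of CLOCK were measured beside it. Bmal1 (also Arntl), the obligate partner, had normalized counts of 491, 523 and 517 in replicates 1, 2 and 3, and a level of 67.8 ± 2.21 per kilobase (SD, n = 3). Clock differed from Bmal1 by -0.36 ± 0.17 on the log2 scale, with Bmal1 higher in 3 of 3 libraries. In the limma fit Bmal1 was not called above Clock (adjusted p = 0.0527), and with no division by length Clock lay 0.51 above Bmal1. Npas2, which can replace CLOCK in the forebrain, had 18, 31 and 4 reads, and Bmal2 had 14, 41 and 6. Clock exceeded Npas2 per kilobase by 4.50 ± 0.95 on the log2 scale, or 22.7-fold, and by 6.02 with no division by length. Both Npas2 and Bmal2 were called below Clock (adjusted p = 4.00e-40 and 3.68e-40, limma).

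In the second loop, REV-ERB receptors repress Bmal1 and ROR receptors activate it. Of 4 genes of that loop, 2 were called above Clock and 1 below, beside 51.5% and 34.9% of all genes. With no division by length 1 was above and 3 below, beside 23.1% and 64.8%. Nr1d2, for REV-ERB beta, had normalized counts of 849, 1022 and 1039, and Nr1d1, for REV-ERB alpha, had 325, 288 and 288, in replicates 1, 2 and 3. Per kilobase Nr1d1 differed from Nr1d2 by -0.87 ± 0.26 on the log2 scale, lower in 3 of 3 libraries, and by -1.68 with no division by length. Both were above Clock per kilobase, by 1.75 for Nr1d2 and 0.88 for Nr1d1 (adjusted p = 5.72e-23 and 7.97e-07, limma). Rora stood at 44.1 ± 6.21 per kilobase and was not called against Clock (adjusted p = 0.149, limma), while Rorb at 14.5 ± 1.33 was below it (adjusted p = 3.27e-18, limma).

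Of the 3 further D-box factors, 2 were called above Clock and 1 below, beside 51.5% and 34.9% of all genes. With no division by length 1 was above and 2 below, beside 23.1% and 64.8%. Tef, a close relative of Dbp, had 2204, 2080.3 and 1906 normalized counts and was the highest of the clock loop genes at 262 ± 19.0 per kilobase (SD, n = 3). Dbp differed from Tef by -0.74 ± 0.080 and from the third relative, Hlf, by 2.89 ± 0.28 on the log2 scale, each with the same sign in 3 of 3 libraries. With no division by length these differences were -2.14 and 1.73. Nfil3, which represses through the D-box, stood at 171 ± 18.9 and was above Clock by 1.69, and Hlf at 21.2 ± 3.82 differed from it by -1.33 (adjusted p = 1.93e-21 and 4.48e-11, limma).

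**Figure D2:**
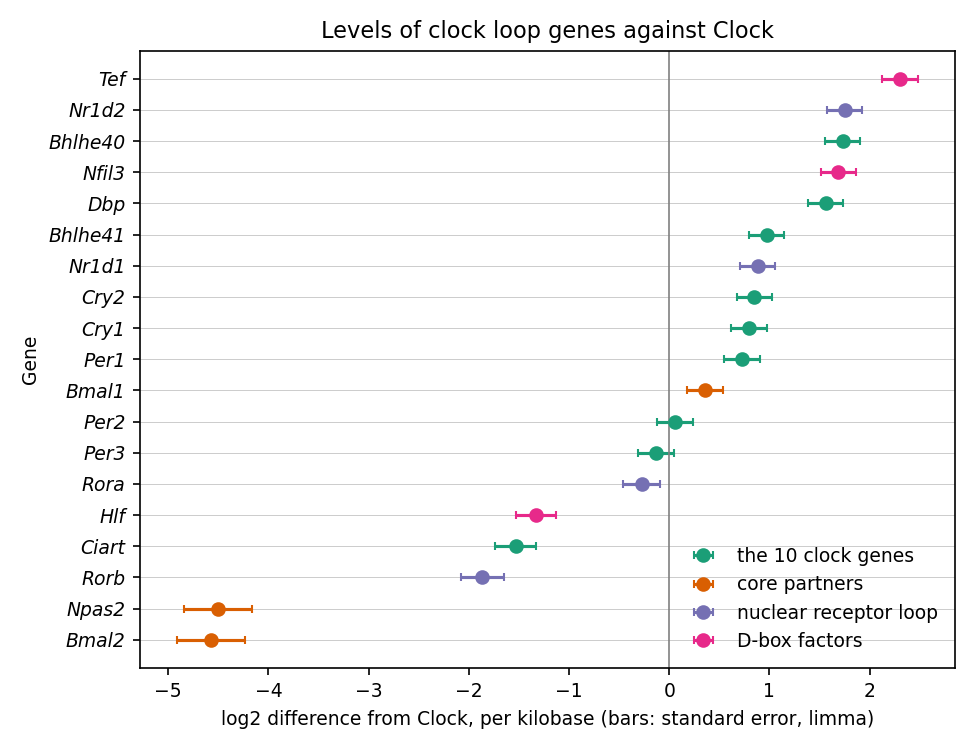
Log2 difference per kilobase of each clock loop gene from Clock (x axis), with bars for the standard error of limma and colours for the 10 clock genes, the core partners, the nuclear receptor loop and the D-box factors. Tef lies farthest above Clock at 2.30 and Bmal2 farthest below at -4.57.

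Kinases, phosphatases, ubiquitin ligases and deubiquitinases help set the lifetime of clock proteins such as PER and CRY. Of 13 such genes, 11 were above Clock per kilobase and 2 below it, beside 51.5% and 34.9% of all genes. With no division by length 7 were above and 2 below, beside 23.1% and 64.8%. The highest per kilobase were the phosphatase gene Ppp1ca at 1600.3 ± 109 and the casein kinase genes Csnk1a1 at 549 ± 59.4 and Csnk1d at 533 ± 32.4. The lowest were Fbxw7 at 68.9 ± 9.20, Btrc at 36.3 ± 2.91 and Fbxl21 at 5.49 ± 0.454.

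Of 7 genes whose proteins associate with PER or CRY, 5 were above Clock and 1 below it, beside 51.5% and 34.9% of all genes. The 1 below was the deacetylase gene Sirt1, at 30.2 ± 5.99 per kilobase. With no division by length 3 were above and 3 below, beside 23.1% and 64.8%. Ddb1 at 1709 ± 90.8, Nono at 724 ± 4.02 and Tipin at 269 ± 22.0 were the highest, and Cul4a at 216 ± 8.06 and Timeless at 41.0 ± 3.74 completed the lowest 3 with Sirt1. Of 9 genes that mark or signal within the suprachiasmatic nucleus, the central clock of the brain, 3 were in the table and the other 6 were not analysed here. The receptor gene Vipr2 had a normalized count of 14.3 ± 3.84, Prokr2 6.97 ± 2.25, and the ligand gene Prok2 had 1, 3 and 0 reads, no more than the 3 reads that a count of 0 allows.

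The spread of each clock gene between the 3 libraries was compared with read sampling. The reads of 4 of the 10 genes differed between libraries by more than sampling (chi-square test, adjusted p under 0.05 over 13941 genes), while 55.4% of all genes did. The test covers counting error only, takes reads as independent molecules and leaves out the variation between pups and cultures. The biological coefficient of variation estimated with edgeR was 11.02% to 12.81% for 9 of the genes and 17.3% for Ciart. The common value over all genes was 13.03%. With 3 libraries edgeR draws these values toward those of other genes, so their narrow range is not each gene's own variation. The observed coefficients of variation of the normalized counts ran from 5.58% for Cry2 to 16.2% for Per1. The 4 called were Clock (adjusted p = 6.57e-08), Per1 (8.03e-07), Bhlhe41 (2.81e-06) and Bhlhe40 (0.0277). Among genes of 0.5 to 2 times the same mean, the SD of the log2 values lay at the 82.4 percentile for Clock (0.22), the 82.0 for Per1 (0.23), the 77.2 for Bhlhe41 (0.20) and the 38.1 for Bhlhe40 (0.11). The highest library exceeded the lowest 1.36-fold for Per1, 1.31-fold for Clock and 1.30-fold for Bhlhe41.

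The other 6 genes were not called. Their adjusted p in the chi-square test ranged from 0.0618 for Per3 to 0.428 for Ciart, and their highest library exceeded the lowest by between 1.11-fold for Cry2 and 1.27-fold for Ciart. Per2, Cry2 and Dbp had SDs of log2 values of 0.086, 0.079 and 0.089, at the 22.2, 21.9 and 26.1 percentile of genes of like mean. With 166 reads in all, a change of the size seen in Per1 would be harder to detect in Ciart than in the other genes.

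The calls rested on particular libraries. Without replicate 1, Clock (adjusted p = 0.995), Per1 (0.218) and Bhlhe40 (0.069) were no longer called in the chi-square test and Per3 was (0.0323), with 35.8% of all genes called. Without replicate 3, Bhlhe41 (0.616) and Bhlhe40 (0.429) were no longer called and Cry1, Cry2 and Dbp were (0.0366, 0.034 and 0.0338), with 37.0% of all genes called. Without replicate 2, 4 were called, with 38.9% of all genes. Across 8 alternatives the adjusted p ran from 7.37e-09 to 0.995 for Clock, from 1.12e-06 to 0.218 for Per1, from 2.40e-06 to 0.616 for Bhlhe41 and from 0.0135 to 0.429 for Bhlhe40. Animal, culture, hour of collection and library preparation cannot be told apart, since each pup gave a single library.

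The 10 genes did not deviate to the same side in replicate 1. Per1, Per2, Cry1, Cry2, Dbp and Ciart, 6 of the 10, were highest in replicate 1, as were 35.2% of all genes whose mean reached 10. Clock, Bhlhe40 and Bhlhe41 were lowest in it, as were 34.9% of those genes. Per2, Per3, Cry1, Cry2, Dbp and Ciart, 6 of the 10, were lowest in replicate 2, as were 27.6%. The deviation of replicate 1 from the mean of the 3 libraries was 0.25 for Per1, 0.17 for Ciart and 0.10 for Dbp and for Cry1 on the log2 scale. It was -0.25 for Clock and -0.15 for Bhlhe41. Outside the 10, Nr1d1 at 0.12 and Tef at 0.098 lay on the side of Per1. On the side of Clock lay Rora at -0.20, Nr1d2 at -0.19, Rorb at -0.12, Hlf at -0.11, Nfil3 at -0.083 and Bmal1 at -0.054.

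**Figure D3:**
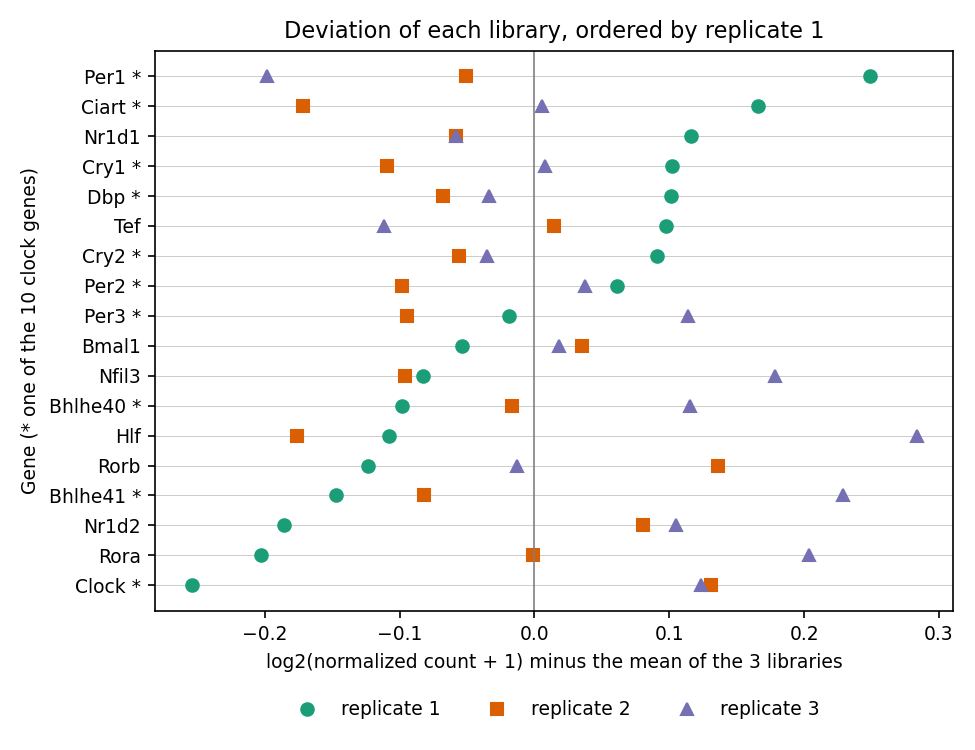
Deviation of each library from the mean of the 3 libraries, as log2(normalized count + 1) (x axis), for the 10 clock genes (marked *) and 8 further clock loop genes in rows, ordered by replicate 1. Replicate 1 ranges from -0.25 for Clock to 0.25 for Per1.

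In replicate 1 the median deviation of genes rose with the GC content of their transcripts, though not every clock loop gene followed it. Genes whose mean reached 100 were split by GC content into 5 equal bins. The median deviation of replicate 1 was -0.16 in the lowest bin, up to 44.0% GC, and 0.12 in the highest, from 55.4%. In replicate 3 the medians ran the other way, 0.095 and -0.11. The longest transcript of Clock has a GC content of 40.9%, those of Rora and Nr1d2 have 40.9% and 41.8%, and those of Per1 and Dbp have 59.4% and 61.6%. Against the trend, Per3 and Nfil3, of 52.4% and 54.5% GC, were at -0.019 and -0.083 in replicate 1, in a bin of median 0.060. Genes of like length and GC content (within 1.5-fold and 2 percentage points) had a median deviation in replicate 1 of -0.17 beside the -0.25 of Clock (292 genes), 0.13 beside the 0.25 of Per1 (430 genes) and 0.14 beside the 0.10 of Dbp (207 genes).

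The same was read for Bhlhe41 and Ciart. The median of 1064 genes like Bhlhe41 was -0.050 in replicate 1 and 0.027 in replicate 3, where Bhlhe41 was at -0.15 and 0.23. The median of 612 genes like Ciart was 0.054 in replicate 1, where Ciart was at 0.17. An alternative chosen after seeing the data took expected reads from the authors' size factors and corrected them for GC content and length per library. With it 2 of the 10 genes were called, Bhlhe41 (adjusted p = 0.000195, chi-square test) and Bhlhe40 (0.0487), and 44.0% of all genes. Per1 (0.0501, next to the threshold of 0.05) and Clock (0.402) were then not called. The correction was fitted to the same 3 libraries, and the part of GC content in the spread of these genes was not tested.

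**Figure D4:**
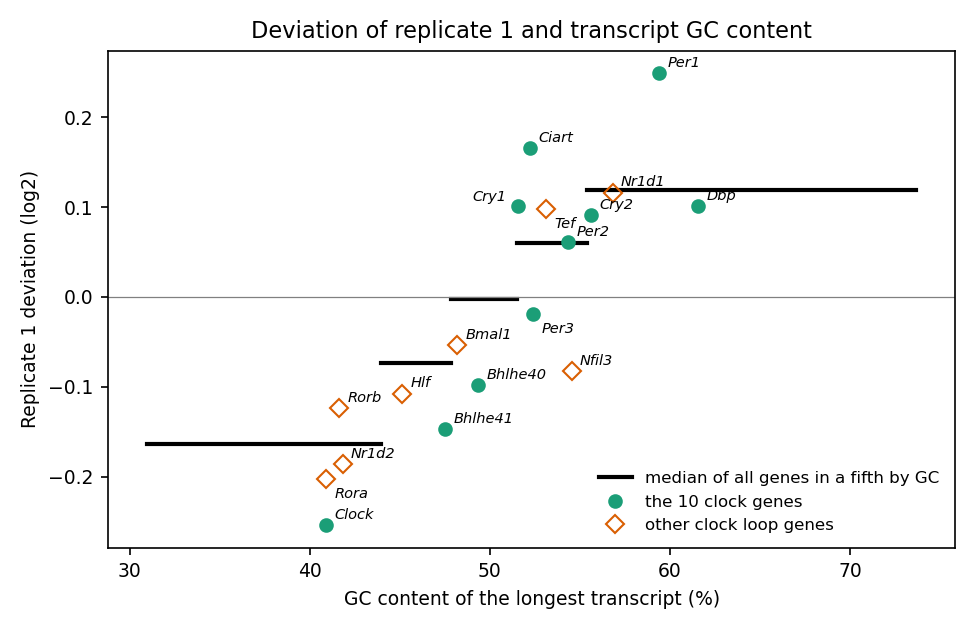
Deviation of replicate 1 from the mean of the 3 libraries on the log2 scale (y axis) against the GC content of the longest transcript (x axis), for the 10 clock genes and 8 further clock loop genes, with black lines for the median of all genes of mean 100 and above in each of the 5 bins by GC content. Clock lies at 40.9% GC and -0.25, and Per1 at 59.4% GC and 0.25.

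Per1 was highest in replicate 1 and lowest in replicate 3, an order also found in 22.7% of all genes whose mean reached 10. All 7 microglial markers were highest in replicate 1, as were 35.2% of all genes, and 5 of the 7 had the order of Per1, while Aif1 and Ctss were lowest in replicate 2. Of the 10 astrocyte markers 2 had that order, Aldh1l1 and Mlc1, and of the 5 mural and fibroblast markers 1 had it, Pdgfrb. Among markers whose mean reached 10, 1 of 4 neuronal (Tubb3) and 1 of 3 oligodendrocyte markers (Mbp) had it. None of the 4 ependymal or 2 endothelial markers did. The part of any of these cells in the spread of Per1 was not tested.

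By profile over the 3 libraries, the clock gene nearest to Dbp was Cry2, with a root mean square distance of 0.00925 between their centred log2 values. The nearest of all 10570 other genes of mean 100 and above were Lzts2, Txlna and Iqcc, at 0.00115, 0.00178 and 0.00232. In all 32 genes lay as near to Dbp as Cry2 did. Cry1 and Per2 were nearest to each other among the clock genes, at 0.0298, a distance within which 253 genes lay from Cry1 and 311 from Per2. With 3 libraries many genes lie close to any profile.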

How the data were processed

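Per the labels' protocols, libraries were made from poly(A) RNA with a stranded kit. The deposited values are a signal per gene and library, a read count that the authors normalized, with DESeq2 and build mm10 per the submitters' processing notes. The sources used here do not name the aligner, the counting tool, its strand setting or the gene filter. Titles and design text give postnatal day 1 and sample descriptions day 0, and the titles were followed. Each value was a whole multiple of 1 read (0.813, 0.472 and 1.20 in replicates 1, 2 and 3), and 100% of values gave whole reads within 0.05 reads. A count of 0 allows up to 3 reads, for counting error only.

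Exon lengths (union of annotated exons), positions and transcript GC content came from the mouse GENCODE release 21, which held 99.5% of the identifiers. Log2 values used a pseudocount of 1, which understates differences of low genes. The chi-square test took genes of mean 10 and above with at least 30 reads, with expected reads from library totals. limma fitted an intercept with a trended prior to each gene's difference from Clock. Both were tried on simulated data, with Clock held at a fixed level for limma and with read sampling alone for the chi-square test. The simulations thus leave out the variation of Clock between libraries and, for the chi-square test, that between cultures. Both tests were adjusted by Benjamini-Hochberg over all genes tested and describe these 3 cultures only.

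The members, lists and tests were chosen with earlier results of these data known. Named are the 10 clock genes, all core partners, nuclear receptor loop genes and D-box factors, the 3 highest and 3 lowest per kilobase of each other clock list, and the 3 genes nearest to Dbp in profile. Some genes that this rule selects are not reported here. Alternatives covered scaling, filters, pseudocount, gene length, left-out replicates and, chosen after seeing the data, thinning and the GC and length correction. Python 3.11.15 (numpy 2.4.6, pandas 2.3.3, SciPy 1.17.1, matplotlib 3.10.9) and R 4.3.3 (limma 3.58.1, edgeR 4.0.16) were used.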

Additional observations from a re-analysis of the deposited data

How the results depend on the processing

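No paired analysis was possible because the 3 libraries form a single group. Under the authors' size factors, TMM sizes, no filter or thinning to the shallowest library, the count of clock genes that differed between libraries stayed at 4, beside 39.6% to 55.6% of all genes. It was 2 to 5 with 1 replicate left out, when 4987 to 5425 of all genes were called, against 7726 with all 3, and 2 with the GC and length correction. Against Clock, the counts of 6 above and 1 below held under another pseudocount, CPM or TMM scaling, no filter, a constant prior, the GC and length correction and with each replicate left out, beside 40.1% to 54.2% of all genes above and 30.7% to 48.7% below. With no filter 8680 genes were below Clock, against 4850. With the longest transcript 2 clock genes were below Clock, Ciart and Per2 at -0.43 (adjusted p = 0.0229, limma, from 5.84e-11 to 0.795 over 11 alternatives), and Per3 was at 0.052. With no division by length 3215 genes were above Clock and 9032 below, 0 clock genes above (limma, also 0 at an unadjusted p under 0.05) and 6 below. The 6 were Per1 at -0.56, Per2 at -1.17, Per3 at -0.65, Cry1 at -1.24, Dbp at -0.64 and Ciart at -4.13, while Cry2 at -0.27 and Bhlhe41 at -0.056 turned negative without being called. With 1 replicate left out Per2 ranged from -0.099 to 0.17. Per2 minus Per3 turned to -0.48 with the longest transcript and -0.52 with no division, and Clock minus Bmal1 to 0.51 with no division. All 10 genes had a mean of 10 or more with each replicate left out. Depth limits Ciart, with 34 to 76 reads per library, and Npas2 and Bmal2.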

Other observations

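Genes that the clock drives in other tissues were expressed in these cultures. All 7 of the output list reached a mean normalized count of 100, as did 54.3% of all genes. limma called 5 above Clock per kilobase and 1 below (adjusted p under 0.05), beside 51.5% and 34.9% of all genes, and 0 above and 6 below with no division by length, beside 23.1% and 64.8%. Nampt, the rate-limiting enzyme of NAD salvage, was the highest at 145 ± 22.3 per kilobase (SD, n = 3), followed by Pdk4, a kinase that restrains pyruvate oxidation, at 95.3 ± 5.71 and by Klf9 at 90.8 ± 17.3. The lowest were the mitotic kinase gene Wee1 at 76.2 ± 9.50, Noct at 52.2 ± 2.96 and Lonrf3 at 40.0 ± 4.95. Replicate 1 was the lowest library for 6 of the 7, as for 34.9% of all genes. These 6, all but Lonrf3, have transcripts of 40.3% to 49.8% GC. In the 3 lowest of the 5 GC bins, the median deviation of replicate 1 over the binned genes ran from -0.16 to -0.0027. The 6 genes lay between -0.26 for Nampt and -0.067 for Pdk4, with Wee1 at -0.21 in the bin of median -0.0027. The part of GC content in this was not tested.

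Genes that serum, cAMP or glucocorticoids induce, signals that are known to act on Per1, were also measured. Of 10 such genes 6 were above Clock and 4 below it (limma), near the shares of all genes, 51.5% and 34.9%. With no division by length 2 were above and 5 below, beside 23.1% and 64.8%. Fos at 593 ± 58.4, Egr1 at 465 ± 51.4 and Junb at 332 ± 21.5 per kilobase were the highest (SD, n = 3), and the glucocorticoid target gene Fkbp5 at 30.2 ± 4.02, Fosb at 2.96 ± 0.331 and Zbtb16 at 1.99 ± 0.354 were the lowest. Of the 10, 4 were highest in replicate 1 and lowest in replicate 3 like Per1, as were 22.7% of all genes. These were Fkbp5, Junb, Arc and Sgk1, the last 2 named after their values were seen. Fos, at 1309, 1320.3 and 1552 in replicates 1, 2 and 3, was highest in replicate 3, and Zbtb16 and Fosb were highest in replicate 2.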
